A study of Mus musculus with 2 samples.

Results

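Muscle contracts through the sarcomere, and 46 genes of the cardiac and skeletal sarcomere, of the calcium store that triggers it and of its energy supply were followed in whole embryonic mouse lung. They were chosen because muscle genes had been seen to be far higher in one of the libraries, so the contrast between the libraries is given for them as a description and nothing is tested with it. All 46 symbols were matched to the 41709 genes of the deposited tables through their NCBI gene numbers. One library came from lungs whose genotype is labelled Prmt5 knockdown and whose sample title names both Shh and Prmt5, and the other came from lungs labelled control, described by the submitters as wild type. Both are polyadenylated RNA of C57BL/6 lungs at E14.5, and each is 1 pool of 7 lungs. Neither the alleles, nor the means of the knockdown, nor the cells it reached are stated in the labels.

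In striated muscle, myosin of the thick filament pulls on actin of the thin filament when calcium binds the troponin complex. Most of these proteins exist as isoforms made by separate genes, and the mix differs between atrium, ventricle, fetal muscle, and slow and fast fibres. The lung itself makes smooth muscle, which uses other isoforms, and in the mouse heart-type muscle also extends along the pulmonary veins.

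With 1 library per genotype no difference has a replicate check, no p-value is given, and each count of genes describes these 2 libraries and not the genotypes. The Prmt5 knockdown library (also called knockdown lungs) held 25829281 counted reads and the control library 22581490. Prmt5 had 2127 reads in the Prmt5 knockdown library and 2704 in the control library, which is 1.35-fold lower and below the ratio used for calls here. Shh, the epithelial hedgehog ligand, had 109 reads in the Prmt5 knockdown library and 1124 in the control library, 10.9-fold lower. In whole tissue, fewer cells of a type and less RNA per cell cannot be told apart. Transcripts of other organs also set the libraries apart. All 11 genes of a liver list were higher in the Prmt5 knockdown library, with a summed level of 5868 FPKM there and 46.6 FPKM in the control library, and none of them was at 0 reads in either. Of 12 lung epithelium genes 10 were lower (all but the keratins Krt8 and Krt18), with summed levels of 257 FPKM in the Prmt5 knockdown library and 985 FPKM in the control library. By the same rule, which is given below, 20.7% of all measured genes were higher and 12.3% lower. The part of these tissue differences in the sarcomere results was not tested.

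The sarcomere genes were higher in the Prmt5 knockdown library almost without exception. They held 1.21% of its reads (95% exact interval 1.205% to 1.214%), against 0.0682% (0.0671% to 0.0693%) of the reads of the control library. A gene was called higher or lower when 1 library had at least 50 reads, the libraries differed by 1.5-fold or more after scaling, and 1 lay outside the 95% counting interval of the ratio. Of the 45 members with enough reads, 44 were higher, none was lower, and the heart nebulin relative Nebl did not reach the ratio, while the same rule called 20.7% of all 14569 measured genes higher and 12.3% lower. The median log2 ratio of the members was 5.05, or 33.1-fold, beside -0.01 for all measured genes. Of the calls over all genes 62.7% were higher, and 52.3% with total counts as scaling. At least 4-fold higher were 43 members (beside 7.36% of measured genes), at least 10-fold 38 (beside 4.19%) and at least 30-fold 27 (beside 2.16%). These counts restate how the members were chosen. The remaining member, the fast myosin Myh2, had 5 reads in the Prmt5 knockdown library and 0 in the control library, where a count of 0 allows up to 3 reads, and it is given no ratio. Of the 46 members 31 nevertheless reached 50 reads in the control library, so most of these genes were detected in both.

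**Figure D1:**
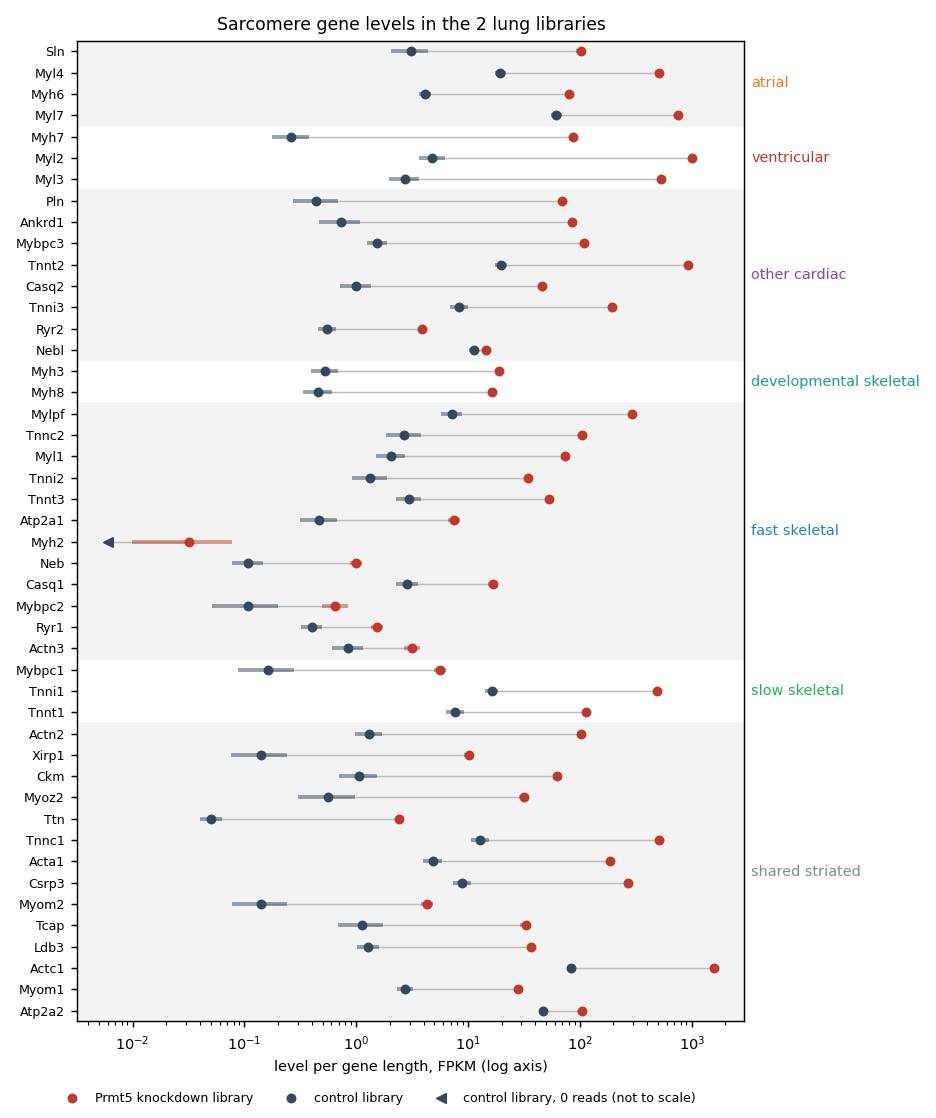
Level of each of the 46 sarcomere genes in FPKM on a log axis, 1 row per gene, grouped by where the isoform is mainly used. Red points are the Prmt5 knockdown library, dark points the control library, and bars are 95% Poisson counting intervals. The genes run between 0.0318 and 1578 FPKM in the Prmt5 knockdown library and between 0 and 83.7 FPKM in the control library, and Nebl and Atp2a2 show the smallest gaps.

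All 13 measured genes of the thick filament were higher (median log2 5.26), beside 20.7% of all measured genes. This count restates how the members were chosen. A heavy chain of the heart marked the upper end. Myh7, the beta heavy chain of the embryonic ventricle and of slow fibres, had 13712 reads in the Prmt5 knockdown library and 36 in the control library. That is 86.9 FPKM in knockdown against 0.261 FPKM in control lungs (FPKM is the count scaled to gene length and library total), and a log2 ratio of 8.47 (95% counting interval 8.02 to 9.0), the highest of all members. With FPKM and a pseudocount of 1, which understates genes this low in the control library, it was 6.12, below Myl2 (7.43) and Myl3 (7.17). Myh6, the alpha heavy chain that the embryonic atrium uses, had 12581 reads in the Prmt5 knockdown library and 571 in the control library, with a log2 ratio of 4.38 (4.26 to 4.50). The beta chain was therefore the less abundant of this pair in the control library and about equal to the alpha chain in the Prmt5 knockdown library.

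Heavy chains of developing skeletal muscle had nearly equal ratios. Myh3, the embryonic form, had 2930 reads in the Prmt5 knockdown library and 71 in the control library, a ratio of 38.7-fold. Myh8, the perinatal form, had 2584 reads in knockdown and 63 in control lungs, a ratio of 38.4-fold. In FPKM, Myh3 and Myh8 stood at 18.8 and 16.3 in the Prmt5 knockdown library, below both cardiac heavy chains, and 0.522 and 0.454 in the control library, between Myh6 and Myh7. Myh2, which belongs to adult fast fibres, was close to undetected as described.

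Regulatory light chains, which bind the neck of the myosin head, differed in ratio between the ventricular and the atrial form. Myl2 of the ventricle and slow fibres stood at 1003 FPKM in the Prmt5 knockdown library and 4.81 FPKM in the control library (19787 reads in knockdown and 83 in control lungs), a log2 ratio of 7.80 (7.50 to 8.14). Myl7 of the atrium stood at 752 FPKM in knockdown and 61.5 FPKM in control lungs (11460 reads in knockdown and 820 in control lungs), a log2 ratio of 3.72 (3.62 to 3.82). Mylpf, the fast skeletal form, had 293 FPKM in the Prmt5 knockdown library and 7.17 FPKM in the control library, 43.9-fold higher. In the control library Myl7 was thus the most abundant member after the cardiac actin Actc1. Mylpf overlaps Septin1, which had 445 reads in the Prmt5 knockdown library and 252 in the control library.

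Essential light chains, the other class on the myosin neck, followed the same order. Myl3, ventricular and slow, had 12335 reads in the Prmt5 knockdown library and 55 in the control library, or 532 FPKM in knockdown and 2.71 FPKM in control lungs, a 209.7-fold difference (log2 7.71, 7.34 to 8.13). Myl4, used in the atrium and in embryonic muscle, had 18230 reads in knockdown and 612 in control lungs and was 28.1-fold higher, and Myl1 of fast fibres had 2586 reads in knockdown and 63 in control lungs and was 38.4-fold higher. The Myl4 gene overlaps the cell cycle gene Cdc27, which had 1904 reads in the Prmt5 knockdown library and 1795 in the control library. Whether the counting used strand is not given in the sources used here, so reads of overlapping genes cannot be told apart.

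Myosin binding protein C tethers the thick filament along its length. The cardiac form Mybpc3 had 11719 reads in the Prmt5 knockdown library and 146 in the control library, 75.5-fold higher. The slow skeletal form Mybpc1 had 596 reads in knockdown and 15 in control lungs and was 36.3-fold higher. The fast form Mybpc2 was the least abundant, with 76 reads (0.648 FPKM) in the Prmt5 knockdown library and 11 (0.107 FPKM) in the control library, 6.28-fold higher (log2 2.65, 1.78 to 3.77). Mybpc2 overlaps Fam71e1, which had more reads than Mybpc2 itself, 90 in the Prmt5 knockdown library and 82 in the control library. Among the settings tried the call of Mybpc2 was the only one of a member to change. It was lost with a minimum of 200 reads and with FPKM at a pseudocount of 1.

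Stretches of promoter sequence are shown for 6 members whose letters just before the gene start hold a sequence long known in muscle promoters, the CArG box bound by serum response factor or the MEF2 site. Each line gives the 150 bases before an annotated start, from RefSeq on GRCm38.p6, read 5′ to 3′ on the gene's strand, and capitals mark the match.
Actc1 (chr2:114052876-114053025, minus strand): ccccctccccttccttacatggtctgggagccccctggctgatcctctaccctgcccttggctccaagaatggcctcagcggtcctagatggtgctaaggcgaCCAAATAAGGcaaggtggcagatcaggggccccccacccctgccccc
Acta1 (chr8:123894776-123894925, minus strand): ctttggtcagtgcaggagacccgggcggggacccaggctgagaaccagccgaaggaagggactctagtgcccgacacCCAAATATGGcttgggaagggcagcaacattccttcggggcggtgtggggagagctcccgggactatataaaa
Myl7 (chr11:5898783-5898932, minus strand): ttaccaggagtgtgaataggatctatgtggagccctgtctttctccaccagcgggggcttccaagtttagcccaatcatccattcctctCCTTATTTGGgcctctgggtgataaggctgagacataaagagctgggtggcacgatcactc
Myl3 (chr9:110763528-110763677, plus strand): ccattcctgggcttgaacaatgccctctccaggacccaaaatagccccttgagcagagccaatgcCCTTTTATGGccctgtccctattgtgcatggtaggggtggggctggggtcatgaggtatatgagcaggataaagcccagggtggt
Mybpc3 (chr2:91117994-91118143, plus strand): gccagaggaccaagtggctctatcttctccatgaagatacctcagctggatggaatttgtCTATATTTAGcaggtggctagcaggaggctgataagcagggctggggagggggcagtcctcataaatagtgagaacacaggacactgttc
Myoz2 (chr3:123034988-123035137, minus strand): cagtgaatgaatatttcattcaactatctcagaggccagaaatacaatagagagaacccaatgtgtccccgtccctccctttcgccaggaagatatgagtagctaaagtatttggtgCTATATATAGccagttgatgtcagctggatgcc
The first 4 carry a CArG box, which begins 47 bases before the start in Actc1, 73 in Acta1, 61 in Myl7 and 85 in Myl3. Mybpc3 and Myoz2 carry a MEF2 site, beginning 90 and 33 bases before their starts.

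Over all members the same search covered 250 bases before each start, on both strands. RefSeq gave such a stretch for 37 of the 46 members and for 27025 genes in all. A CArG box was found in 7 of the 37 members (18.9%), namely Acta1, Actc1, Ldb3, Myl3, Myl7, Myom1 and Nebl, beside 1.62% of all genes. A MEF2 site of this strict form was found in Mybpc3, Myoz2 and Ttn (8.11%, beside 0.592% of all genes). The M-CAT element CATTCC was in 11 members (29.7%, beside 14.4%), the E-box CANNTG in 32 (86.5%, beside 69.3%), GATAAG in 4 (10.8%, beside 7.6%) and TATAAA in 7 (18.9%, beside 14.3%). A run of letters may count for more than 1 motif. These are counts of letters in a short window and do not show that a factor binds there. Neither a CArG box nor a MEF2 site, in the form searched, was found in this window of Myh7, Myl2, Pln or Ankrd1. These had 4 of the 5 highest ratios, and the fifth is the CArG-bearing Myl3. M-CAT was found in Myh7, Ankrd1 and Myl3, TATAAA in Myl2 and Pln, and GATAAG in Pln. Whether any of these motifs bears on the ratios was not tested.

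Thin filament genes were among the most abundant members. Actc1, the cardiac actin that embryonic skeletal muscle also uses, had 59556 reads in the Prmt5 knockdown library and 2762 in the control library. It was the 33rd most abundant gene per length in the Prmt5 knockdown library (1578 FPKM) and the 940th in the control library (83.7 FPKM), with a log2 ratio of 4.35 (4.29 to 4.40). Acta1, the skeletal actin, stood at 187 FPKM in the Prmt5 knockdown library and 4.88 FPKM in the control library, 41.3-fold higher. These actins are near-identical copies, and how reads that fit both were counted is not given in the sources used here, so their split is uncertain.

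Troponin T anchors the troponin complex to tropomyosin. The cardiac gene Tnnt2 led with 29385 reads in the Prmt5 knockdown library and 547 in the control library, 50.6-fold higher. The slow skeletal Tnnt1 had 3309 reads in knockdown and 194 in control lungs (16.1-fold) and the fast skeletal Tnnt3 1703 reads in knockdown and 83 in control lungs (19.2-fold). Tnnt3 overlaps the annotated gene Prr33, which had 145 reads in the Prmt5 knockdown library and 321 in the control library.

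Troponin I holds the filament off until calcium arrives, and its isoforms also mark maturation, since the fetal heart relies on the slow skeletal form. Tnni1, that slow form, was the most abundant in both libraries, with 493 FPKM in the Prmt5 knockdown library and 16.3 FPKM in the control library (32.6-fold). The adult cardiac form Tnni3 had 192 FPKM in knockdown and 8.36 FPKM in control lungs (24.7-fold), and the fast form Tnni2 34.6 FPKM in knockdown and 1.34 FPKM in control lungs (27.6-fold). The troponin I genes thus lay close together in ratio, unlike the ventricular and atrial myosin genes.

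Troponin C is the calcium sensor. Tnnc1 of heart and slow fibres had 9344 reads in the Prmt5 knockdown library and 203 in the control library (43.3-fold), and Tnnc2 of fast fibres 1886 reads in knockdown and 42 in control lungs (41.9-fold). Nebulin and its relative behaved differently from each other. Neb, which sets thin filament length in skeletal fibres, had 588 reads in knockdown and 55 in control lungs, with a log2 ratio of 3.32. Nebl, its counterpart in heart, had 1922 reads in the Prmt5 knockdown library and 1304 in the control library, or 14.497 FPKM in knockdown and 11.3 FPKM in control lungs, a log2 ratio of 0.48 (0.37 to 0.58), the smallest among the members with enough reads. Several starts are annotated for Nebl, and a count per gene does not tell their transcripts apart.

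Scaffold genes of the Z disc and M band were all called higher, beside 20.7% of all measured genes, which restates the choice of members. Their log2 ratios lay between 2.0 and 6.96, with a median of 5.05. At the top was Ankrd1, a stretch-responsive ankyrin repeat protein of heart, with 3893 reads (85.4 FPKM) in the Prmt5 knockdown library and 29 (0.728 FPKM) in the control library (log2 6.96, 6.46 to 7.56). Actn2, the Z disc actinin of heart and skeletal fibres, had 6616 reads in knockdown and 74 in control lungs and was 83.8-fold higher. At the bottom was Actn3, the actinin of fast fibres, with 235 reads (3.15 FPKM) in the Prmt5 knockdown library and 55 (0.844 FPKM) in the control library (log2 2.0, 1.58 to 2.46). Between Ankrd1 and Actn3 also stood the actin binder Xirp1 (75.4-fold), the calcineurin binder Myoz2 (58.5-fold), the giant spring Ttn (51.5-fold), the LIM protein Csrp3 (33.1-fold), the M band proteins Myom2 (32.2-fold) and Myom1 (11.0-fold), the titin cap Tcap (30.9-fold) and the Z disc protein Ldb3 (30.7-fold).

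All 9 genes of calcium handling and energy supply were called higher (median log2 4.10), beside 20.7% of all measured genes. This too restates the choice of members. Pln, the phospholamban that restrains the heart's calcium pump, had 4325 reads (69.3 FPKM) in the Prmt5 knockdown library and 24 (0.440 FPKM) in the control library (log2 7.38, 6.83 to 8.05). Sln, sarcolipin, which restrains the pump in atrium and skeletal fibres, had 1371 reads in knockdown and 36 in control lungs and was 35.5-fold higher. The pump of heart and slow fibres itself, Atp2a2, which many other cell types also use, had 13222 reads (106 FPKM) in the Prmt5 knockdown library and 5157 (47.1 FPKM) in the control library, 2.42-fold higher (log2 1.27, 1.23 to 1.32). Atp2a2 alone made up 33.5% (32.7% to 34.2%) of the member reads of the control library, and the highest share in the Prmt5 knockdown library was 19.1% (18.9% to 19.2%) for Actc1.

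Release channels and calcium buffers showed smaller ratios for the skeletal form. The cardiac release channel Ryr2 had 1541 reads in the Prmt5 knockdown library and 190 in the control library (7.63-fold), and the skeletal Ryr1 588 reads in knockdown and 134 in control lungs (1.54 FPKM in knockdown and 0.402 FPKM in control lungs, 4.13-fold). The store protein Casq2 of heart had 3027 reads in knockdown and 57 in control lungs (49.7-fold), whereas Casq1 of skeletal fibres had 811 reads in knockdown and 121 in control lungs (6.30-fold). The skeletal pump Atp2a1 had 664 reads in knockdown and 36 in control lungs (17.2-fold), and Ckm, the muscle creatine kinase, 2270 reads in knockdown and 34 in control lungs (62.1-fold). Atp2a1 overlaps Rabep2, which had 761 reads in the Prmt5 knockdown library and 903 in the control library, and Pln overlaps Cep85l, which had 173 reads in knockdown and 249 in control lungs.

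The members were grouped by where each isoform is mainly used, with earlier results of these data known. The 3 ventricular genes Myh7, Myl2 and Myl3 were 209.7- to 355-fold higher, and the 4 atrial genes Myl7, Myh6, Myl4 and Sln 13.2- to 35.5-fold higher. How often other groups of 3 and 4 genes lie apart like this was not tested. Myh7, Myl2 and Myl3 also belong to slow fibres, Myl4 to embryonic muscle and Sln to skeletal fibres. Neither class is therefore of the heart alone. Per length, the ventricular genes summed to 1621 FPKM in the Prmt5 knockdown library and 7.78 FPKM in the control library, and the atrial genes to 1442 FPKM in knockdown and 88.3 FPKM in control lungs. The atrial sum was thus the higher in the control library and the lower in the Prmt5 knockdown library. Other cardiac genes had a median log2 ratio of 5.65 over 8 genes. The developmental skeletal pair had 5.27, the 3 slow skeletal genes 5.03 and the 14 genes shared by striated muscles 5.21. The slow skeletal median is the value of Tnni1, which the fetal heart also uses. The fast skeletal genes had the lowest class median, 4.10 over 11 measured genes, with values between 2.0 and 5.46. This class also holds genes described above only as skeletal, namely Atp2a1 (4.10), Neb (3.32), Casq1 (2.66) and Ryr1 (2.05). Its median is therefore not that of fast fibre genes alone. Members at least 100-fold higher numbered 5 (Myh7, Myl2, Myl3, Pln and Ankrd1), beside 0.762% of all measured genes. No test of a difference between these groups was possible with 1 library per genotype.

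**Figure D2:**
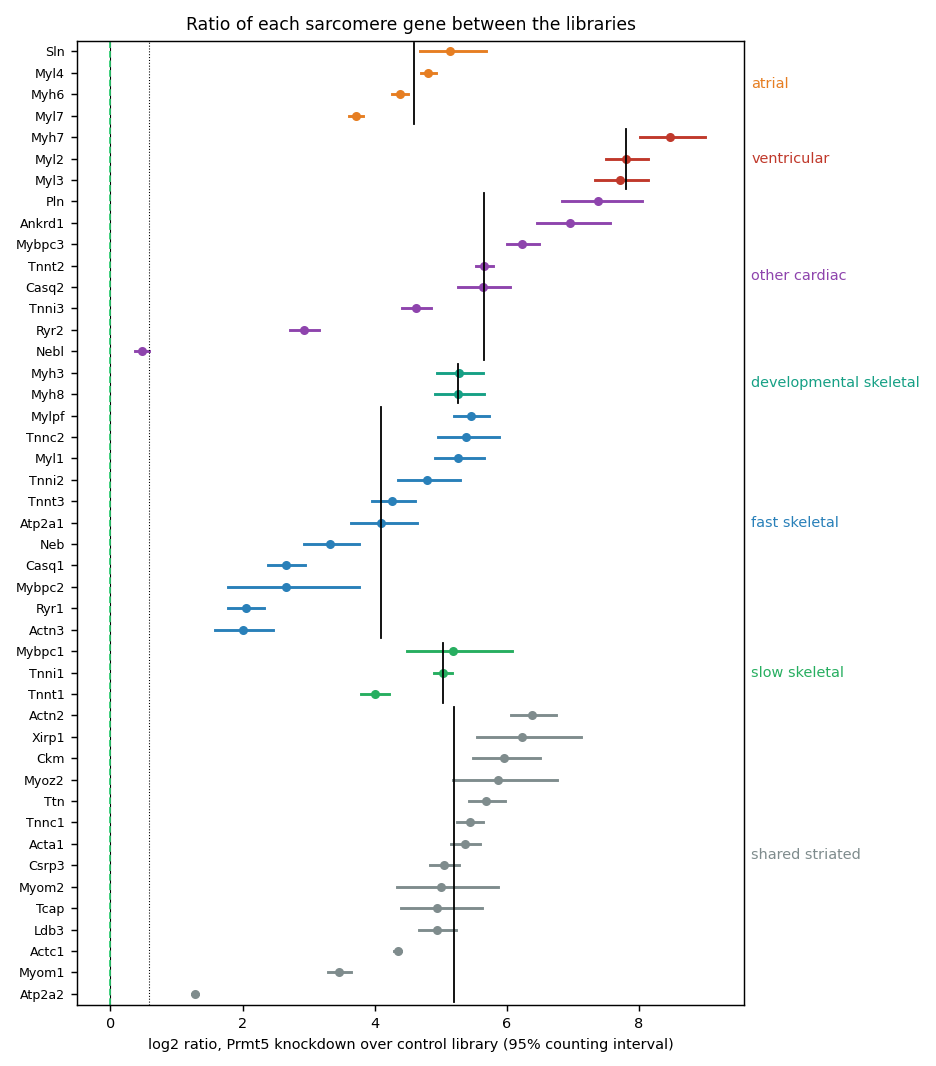
Log2 ratio of the Prmt5 knockdown over the control library for the 45 measured sarcomere genes, with 95% counting intervals, coloured by isoform class. Black bars are class medians, the dotted line is the 1.5-fold ratio, and the dashed green line is the median of all measured genes (-0.01). The ventricular genes lie between 7.71 and 8.47 and the atrial genes between 3.72 and 5.15.

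The isoform mix inside each library does not depend on library scaling, and 13 pairs of related genes were compared as the share of one within the pair per length. By the fold difference of their ratio, the heavy chain and regulatory light chain pairs of the heart chambers differed most between the libraries, while the share itself moved most for Myl2 and Casq1. Myh7 made up 52.1% (51.5% to 52.7%) of the Myh7 and Myh6 level in the Prmt5 knockdown library and 5.92% (4.18% to 8.10%) in the control library. Relative to Myh6, Myh7 was 17.3-fold higher in the Prmt5 knockdown library than in the control library (12.3 to 25.0). Myl2 made up 57.1% (56.6% to 57.7%) of Myl2 and Myl7 in the Prmt5 knockdown library and 7.25% (5.80% to 8.93%) in the control library, a 17.1-fold difference in their ratio (13.6 to 21.7). Myl3 made up 51.1% of Myl3 and Myl4 in the Prmt5 knockdown library and 12.2% in the control library (7.53-fold, 5.70 to 10.1). In raw reads, without regard to length, Myl3 was the minor member in both libraries (40.4% in knockdown and 8.25% in control lungs), and with the longest annotated transcript as length it made up 66.3% in knockdown and 20.7% in control lungs.

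Other pairs differed in both directions. Casq1 made up 26.6% (25.1% to 28.2%) of the calsequestrins in the Prmt5 knockdown library and 74.2% (67.6% to 80.05%) in the control library, where the skeletal form was the major one. Relative to Casq1, Casq2 was 7.92-fold higher in the Prmt5 knockdown library than in the control library (5.67 to 11.2). Ryr1 made up 28.5% of the release channels in the Prmt5 knockdown library and 42.4% in the control library. Tnnt1 made up 10.9% of Tnnt1 and Tnnt2 in the Prmt5 knockdown library and 27.9% in the control library. Mybpc1 made up 4.95% of Mybpc1 and Mybpc3 in the Prmt5 knockdown library and 9.51% in the control library. In all of these the gene classed as skeletal held a smaller share in the Prmt5 knockdown library than in the control library. The skeletal Acta1 and Atp2a1 went the other way, as given below. Whether such shares tell skeletal muscle from heart was not tested. With the longest annotated transcript as length, Tnnt1 made up 26.1% in knockdown lungs and was the major one in control lungs (52.7%). Sln made up 59.6% of Sln and Pln in the Prmt5 knockdown library and 87.5% in the control library, and the share in the Prmt5 knockdown library was 24.1% in raw reads and 36.0% with the longest transcript.

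In some other pairs the first named gene had a larger share in the Prmt5 knockdown library than in the control library. The skeletal Acta1 made up 10.6% of the actin pair in the Prmt5 knockdown library and 5.50% in the control library. The skeletal Atp2a1 made up 6.62% of the pumps in knockdown and 0.976% in control lungs. Tnni1 made up 72.0% of Tnni1 and Tnni3 in knockdown and 66.1% in control lungs. As the fetal heart relies on Tnni1, this share does not tell skeletal muscle from heart. For Tnnc2 within the troponin C pair (17.0% in the Prmt5 knockdown library and 17.3% in the control library) and Myh8 within Myh8 and Myh3 (46.4% in knockdown and 46.5% in control lungs), the interval of the relative difference held 1. It ran between 0.694 and 1.40 for Tnnc2 and between 0.695 and 1.42 for Myh8. Of the 13 pairs 6 had the first gene relatively higher in the Prmt5 knockdown library, 5 had it lower and 2 had an interval that held 1. The relative difference of a pair follows from its members' ratios between the libraries, so it is not separate from that contrast. Other gene pairs were not compared.

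**Figure D3:**
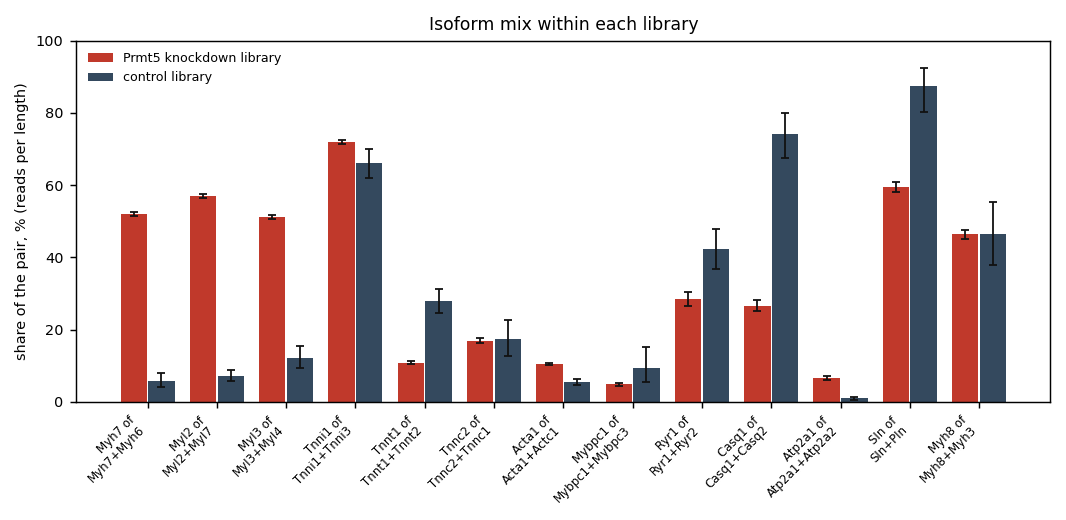
Share of the first named gene within each of 13 isoform pairs, in percent of the pair's reads per length, in the Prmt5 knockdown library (red, left) and the control library (dark, right), with 95% exact counting intervals. The ventricular myosin genes Myh7, Myl2 and Myl3 hold 51.1% to 57.1% of their pairs in the Prmt5 knockdown library and 5.92% to 12.2% in the control library.

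Several of these isoforms lie beside each other in the genome (GRCm38.p6), and their ratios ranged from close to far apart. Myh6 (chromosome 14, 54941921 to 54968017) and Myh7 (54970684 to 54994626) are 2.67 kb apart, with ratios of 20.8-fold and 355-fold. Tnni3 and Tnnt1 on chromosome 7 are 2.33 kb apart (24.7-fold and 16.1-fold), Tnni1 and Tnnt2 on chromosome 1 are 25.3 kb apart (32.6-fold and 50.6-fold), and Tnni2 and Tnnt3 on chromosome 7 are 54.4 kb apart (27.6-fold and 19.2-fold). In the skeletal myosin cluster of chromosome 11, Myh2 lies between Myh3 (67078273 to 67102291) and Myh8 (67277124 to 67308634), and had 5 reads in the Prmt5 knockdown library where those had 2930 and 2584.

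Striated muscle genes outside the 46 were higher as well. Of 73 such genes 67 had enough reads, of which 61 were higher, 1 was lower and 5 were not called (Nexn, Palld, Jph1, Asph and Cacna1c). Of all measured genes 20.7% were higher and 12.3% lower. The median log2 ratio of the list was 3.94, beside -0.01 for all measured genes. Those with most reads were the tropomyosin Tpm1 (log2 1.27), the filamin Flnc (0.95), the actin bundler Palld (0.18, not called) and desmin, Des (1.72), all of which smooth muscle also uses. The lower gene was the muscle glycogen phosphorylase Pygm, with 41 reads in the Prmt5 knockdown library and 89 in the control library, named after its value was seen.

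Regulators of heart and skeletal muscle were mostly higher too. Of 17 heart factors and peptides 14 were higher and 2 lower, beside 20.7% and 12.3% of all measured genes. Nppa, the atrial natriuretic peptide that the embryonic ventricle also makes, had 3617 reads in the Prmt5 knockdown library and 12 in the control library. The heart factor Nkx2-5 had 1579 reads in knockdown and 29 in control lungs. The ventricular factor Irx4 had 425 reads in knockdown and 3 in control lungs (115-fold). Hey2, also a ventricular factor, differed less, with 517 reads in knockdown and 89 in control lungs (5.46-fold). Nppb, the B-type natriuretic peptide, and Bmp10, a heart growth factor, had 583 reads and 204 reads in the Prmt5 knockdown library and 0 reads in the control library, at least 183-fold and 64.1-fold higher with 3 reads taken for the 0. Nkx2-5, Nppa, Irx4 and Hey2 were named as cell type markers, listed with earlier results of these data known. Nppb and Bmp10 were named after their values were seen. The 2 lower factors, Tbx5 (log2 -1.28) and Nr2f2 (-1.0), which marks the atrium, are also made by lung mesenchyme. Gata6 was not called (0.45). Of 11 measured skeletal muscle regulators 8 were higher and none lower (beside the same 20.7% and 12.3%), among them Myog (1708 reads in knockdown and 57 in control lungs, log2 4.81) and Myod1 (440 reads in knockdown and 7 in control lungs, 5.79), while Mef2a (0.51), Mef2d (0.09) and Six4 (-0.45) were not called. The sign of Mef2d depended on scaling and was negative with total counts.

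The smooth muscle list, which besides contractile genes holds the regulators Foxf1 and Myocd and the hedgehog inhibitor Hhip, and the list of non-muscle contractile genes had medians slightly below 0. Of 12 measured smooth muscle genes 2 were higher (Cnn1 and Myl9) and 5 lower (Actg2, Myh11, Mylk, Hhip and Foxf1), with a median log2 ratio of -0.34. Beside this count and those of the lists that follow, 20.7% of all measured genes were called higher and 12.3% lower. Those with most reads were Acta2 at 308 FPKM in the Prmt5 knockdown library and 355 FPKM in the control library (-0.10, not called), Mylk at -1.36, Foxf1 at -1.87 and Myl9 at 0.92. Of 13 non-muscle genes none was higher and 2 were lower (Myh14 and Actn1, median of the list -0.37), with Actb at -0.31, Actg1 at -0.11, Myl6 at 0.23 and Myh10 at -0.55, none of them called. The 11 liver genes had a median of 7.29, between the ventricular and the other cardiac genes, and 11 of 12 red blood cell genes were higher (all but Hbb-y, median 2.14), while 6 of 10 endothelial genes were lower (median -0.63). Whether these share a source with the sarcomere transcripts was not tested.

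**Figure D4:**
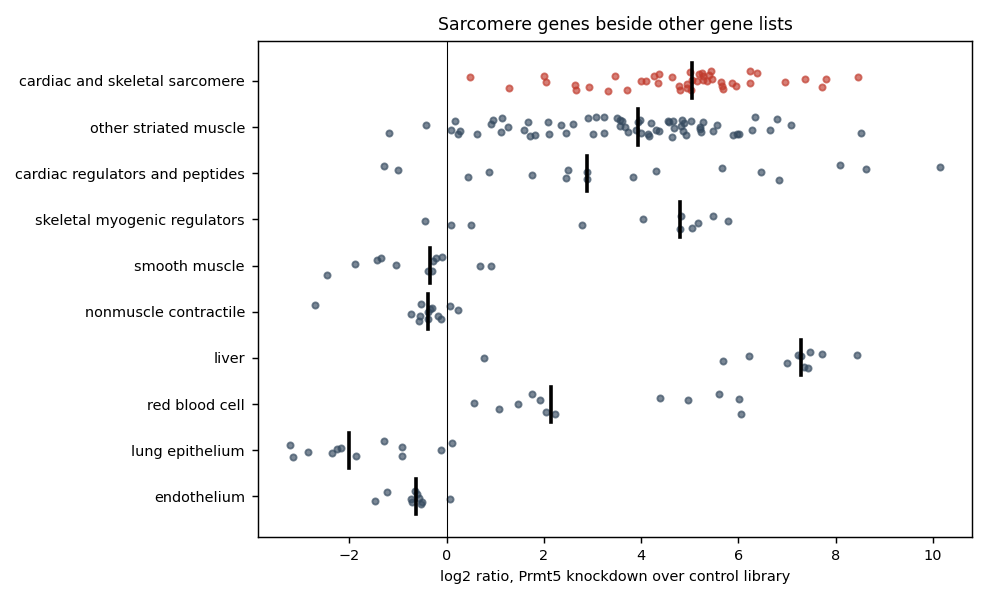
Log2 ratio of the Prmt5 knockdown over the control library for each measured gene of the cardiac and skeletal sarcomere set (red) and of 9 other lists (dark), with list medians as black bars. Sarcomere genes have a median of 5.05 and liver genes of 7.29, while the medians of the smooth muscle (-0.34) and non-muscle contractile (-0.37) lists are near 0, with single genes down to -2.45 (Hhip) and -2.70 (Myh14).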

How the data were processed

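The authors deposited raw read counts per gene and FPKM values for the same 41709 entries. The submitters' processing notes name the aligner TopHat2 2.0.12 with Bowtie2 2.2.3, the read counter HTSeq 0.6.1, and mm10, and per the labels' protocols RNA was extracted with TRIZOL and libraries made with the NEBNext Ultra kit. For the annotation, the strand and multiply mapped reads, the settings are not given in the sources. The deposited FPKM equalled the count over a gene length and the library total. The implied lengths were whole within 0.001 bp in 100% of 22831 genes, so FPKM adds only lengths to the counts. Symbols and coordinates came from RefSeq on GRCm38.p6, which is mm10 (40269 entries matched, with 99.8% of reads in each library).

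Here, edgeR 4.0.16 in R 4.3.3 gave TMM-scaled library sizes. Log2 ratios are Prmt5 knockdown over control, after 0.5 reads, in proportion to library size, were added. Their 95% intervals are exact Clopper-Pearson intervals of the counts given their sum. Level intervals are exact Poisson, and the relative difference of a pair is a conditional odds ratio. All intervals, and the limit of 3 reads that a count of 0 allows, cover counting error only, and PCR copies are not independent molecules. The code was tested on simulated counts. The members, the lists and the isoform classes were chosen with earlier results of these data known. All members are named or counted. In other lists up to 4 genes with most reads are named, with cell type markers and any gene said to be named after its value. Alternatives were total counts, DESeq2 1.42.0 size factors, FPKM with pseudocounts of 0.1 and 1, read minima of 10, 200 and 1, a ratio of 2, a prior count of 2, and other lengths.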

Additional observations from a re-analysis of the deposited data

How the results depend on the processing

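No paired analysis was possible because each genotype has 1 library, and leaving out a replicate was not possible either. Of 414 ratios of members under 9 other settings, 412 kept their direction and call, and Mybpc2 lost its call under FPKM with a pseudocount of 1 and a minimum of 200 reads. Total counts moved the median of all measured genes by -0.11 (log2), and higher genes were 52.3% of calls, against 62.7% with the main scaling. FPKM with a pseudocount of 1 gave a member median of 4.04 and a median of 2.12 for the striated muscle genes outside the members. That median was 3.31 with a pseudocount of 0.1. The single lower gene of that list was not called with the pseudocount of 1 or with a minimum of 200 reads, leaving 0. Genes called higher numbered 1956 with the minimum of 200 reads, and genes called lower 703 with a ratio of 2, where fewer can pass by construction. Mef2d turned to -0.0229 with total counts, -0.0228 with FPKM at a pseudocount of 0.1 and -0.0218 at 1.

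Shares within pairs depend on the length used. In raw reads the shares in the Prmt5 knockdown library and, where they moved, in the control library were 63.3% and 9.19% for Myl2, 40.4% and 8.25% for Myl3, 76.0% and 70.6% for Tnni1, and 24.1% and 60% for Sln. In the Prmt5 knockdown library alone they were 10.1% for Tnnt1, 11.0% for Acta1, 21.1% for Casq1 and 4.78% for Atp2a1. With the longest GENCODE transcript they were 66.3% and 20.7% for Myl3, 57.3% and 50.4% for Tnni1, 26.1% and 52.7% for Tnnt1, and 36.0% and 72.6% for Sln, and in the Prmt5 knockdown library alone 53.4% for Myl2, 11.2% for Acta1 and 7.57% for Atp2a1. The remaining shares tried stayed within their counting intervals. The ratio of a pair between libraries is free of length and scaling. Depth limits the control library most, where Mybpc2, Mybpc1, Xirp1, Myoz2 and Myom2 rest on 11 to 16 reads.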

Other observations

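Lengths implied by the deposited tables differed from the longest GENCODE transcript for some members. The ratio of the implied length over the longest transcript was 0.367 for Tnnt2, 0.373 for Csrp3 and 0.395 for Sln, and 1.52 for Tnni2. Levels per length of these genes carry that difference, while their ratios between libraries do not.

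Tagln, a main contractile gene of smooth muscle, had 4 reads in the Prmt5 knockdown library and 0 in the control library, although Acta2 had 14908 reads in knockdown and 15037 in control lungs. Its count was not read as an expression level. In all, 7 of the 46 sarcomere genes overlap another gene with at least 50 reads in a library.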
